A study of Sus scrofa with 3 samples.

Results

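Switch regions are short stretches of CG-poor DNA at which CG methylation in the liver was near empty in one pig breed and near full in another. The breeds were Enshi black pig (ES), Large White pig (LW) and Chinese wild boar (WB). The regions were selected from the deposited lists of differentially methylated regions by 4 conditions, namely a place on chromosomes 1 to 18, a length below 1000 bp, fewer than 0.1 CG sites per bp, and a mean methylation level of at most 20% in one breed and at least 80% in the other. Of 25044 listed regions in 3 breed comparisons, 16436 were short, CG-poor and autosomal, and 477 of these met the level conditions (181 between ES and LW, 160 between ES and WB, and 136 between LW and WB). Regions of different comparisons that overlapped were counted as 1 locus, which gave 396 distinct loci. Since both levels chose the members, the size of the difference at a switch region is a description and was not tested.

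The levels come from bisulfite sequencing of liver DNA of male pigs of 90 days of age, with 1 methylome for each of the 3 breeds. ES is a Chinese and LW a European domestic breed, and WB is the undomesticated form. The labels name 3 pigs in the growth protocol and do not say whether they were pooled, so breed and animal cannot be told apart, and no test between breeds was possible. Each level is the authors' estimate for a CG site or the mean of a region, its read depth is unknown, and the error given beside a difference is the deposited standard error (SE) of single CG sites, taken as the median over the listed sites of the region. All positions are on Sscrofa10.2. No markers of liver cells could be checked in lists of methylation differences.

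In mammals most cytosines that precede a guanine carry a methyl group. DNMT1 copies this mark at replication, DNMT3A and DNMT3B set it anew, and TET enzymes oxidize it on the way to its removal. Outside CpG islands, short stretches of low methylation are often found where transcription factors bind, as at enhancers, and methylation there can differ between alleles that differ in sequence. Near empty here means a level of at most 20% and near full a level of at least 80%, as the authors' model estimated them. In a bulk tissue such as liver the reads come from hepatocytes and from all other cells of the organ together.

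A full switch was a rare form of the listed differences. Between ES and LW it made up 3.0% of the 6030 short CG-poor regions, with ES near empty in 109 regions (1.81%) and LW in 72 (1.19%). In the comparison of ES with WB the share was 2.57% of 6237 regions, with ES near empty in 95 (1.52%) and WB in 65 (1.04%). For LW with WB it was 3.26% of 4169 regions, with LW near empty in 65 (1.56%) and WB in 71 (1.70%). The rule itself set these shares. The usual short CG-poor region outside the switch set had a median level of 48.5% in its lower breed and 89.2% in its higher breed, so that near-full levels were common in the lists and near-empty ones were not. Between ES and WB, 4407 regions reached 80% in the higher breed, 514 fell to 20% or less in the lower breed, and 31.1% of the latter were switch regions.

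**Figure D1:**
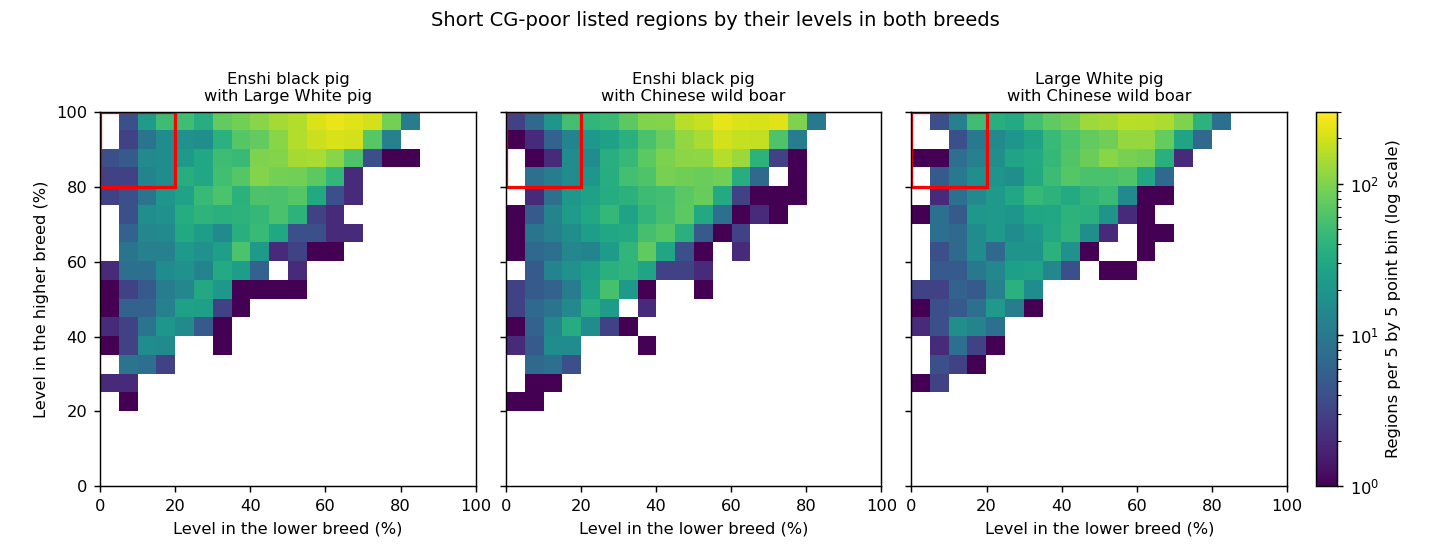
Short CG-poor autosomal regions of each comparison by the mean level in the lower breed (x axis, %) and in the higher breed (y axis, %), with the number of regions per bin in colour on a log scale. The red square holds the switch regions (181, 160 and 136), and the fullest bins lie at a lower level of about 50% to 70%, far from it.

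ES was the near-empty breed more often than its partner. It was near empty in 60.2% of the switch regions with LW (95% Wilson interval 52.9% to 67.1%) and in 59.4% of those with WB (51.6% to 66.7%). LW was near empty in 47.8% of its switch regions with WB (39.6% to 56.1%). Of the regions with at least 10 CG sites, ES was near empty in 50% of 30 with LW (33.2% to 66.8%) and in 71.4% of 28 with WB (52.9% to 84.7%). These intervals cover the counting of regions only, not differences between animals. Among the other short CG-poor regions the first-named breed was the lower one in 55.6%, 56.0% and 51.3% of regions in the same order, so the lean towards low levels in ES was present in both sets, and these shares lie within the intervals of the switch regions. Over loci, ES was the near-empty breed at 165, LW at 115 and WB at 116, each locus being counted once by its region with most CG sites.

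The median switch region had a level of 16.0% in its lower breed and 94.3% in its higher breed, a difference of 78.1 points with a median SE of 9.18 points over 476 regions with listed sites. Near-full levels exceeded 95% in 230 of the 477 regions (48.2%), whereas near-empty levels below 10% were reached in 55 (11.5%) and below 5% in 12 (2.52%). ES had a median near-empty level of 15.1% over 204 regions, with 14.2% of them below 10%. The corresponding medians were 16.9% in LW (137 regions, 8.76% below 10%) and 17.6% in WB (136 regions, 10.3% below 10%). On the near-full side the order of the breeds was the same, with medians of 91.4% in ES, 93.2% in LW and 95.7% in WB. Regions of both comparisons of a breed enter these values, so a locus that switched in both entered 2 times. The breed was near empty at 33 such loci for ES, 21 for LW and 19 for WB, and near full at 2, 3 and 3. The limits of the rule bound these medians, and whether they differ was not tested.

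The members differed widely in size. Their CG number ran from 4, the smallest number in the lists, to 38, and their length from 51 to 872 bp. Exactly 4 CG sites were present in 205 regions (43.0%), against 22.6% of the other 15959 short CG-poor regions, and 10 or more in 78 (16.4%), against 34.3%. The median switch region was 124 bp long with 5 CG sites, and the median of the others 180 bp with 7. Regions below 200 bp made up 73.0% of the switch set and 55.6% of the rest. The density of CG sites differed less, at 4.60 per 100 bp in the switch regions and 5.0 in the others. Where every CG site of a region was listed, neighbouring CG sites lay a median of 20 bp apart in the comparison of ES with LW, 16 bp in that with WB, and 21 bp between LW and WB.

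**Figure D2:**
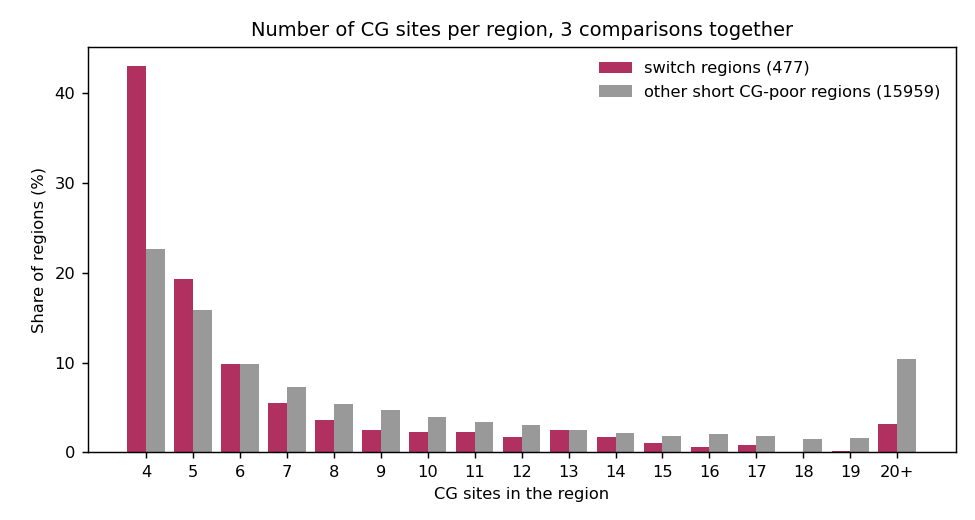
Number of CG sites per region (x axis) and share of regions (y axis, %) for the 477 switch regions and the other 15959 short CG-poor regions, with the 3 comparisons together. Regions with 4 CG sites make up 43.0% of the switch set and 22.6% of the rest, and those with 20 or more make up 3.14% and 10.4%.

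Small regions carried the larger errors. The SE had a median of 10.1 points over the 205 regions with 4 CG sites, 9.20 points over the 194 with 5 to 9, and 6.93 points over the 78 with 10 or more. The median lower level was 15.7%, 16.0% and 17.4% in the same order, within the limit that the rule set. Regions with more CG sites are therefore given first.

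Of the regions with the most CG sites, the largest lay on chromosome 5 (3292309 to 3292803, 38 CG sites in 495 bp). Its level was 88.3% in LW and 13.8% in WB, with an SE of 3.94 points, and ES stood at 33.4% in an overlapping region of another comparison. That region overlapped it by 311 bp, and the level of LW moved by 7.19 points between both lists. The locus on chromosome 9 (8483431 to 8483860, 37 CG sites) had 17.6% in WB, 83.3% in ES (SE 4.59 points) and 69.3% in LW. On chromosome 15 (153936205 to 153936836, 37 CG sites) LW was near empty with 14.2% and ES near full with 83.0% (SE 5.86 points), and its next listed region was 3337 bp away.

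The next group held loci at which all 3 breeds had a level. On chromosome 14 (122030865 to 122031265, 28 CG sites) ES had 88.4%, LW 13.5% and WB 17.7%, so that 2 breeds were near empty and 1 near full. Chromosome 8 held a locus (80328259 to 80328516, 23 CG sites) with 16.0% in ES, 27.0% in LW and 96.6% in WB. The reverse form, with 1 breed near empty, was seen on chromosome 1 (109486510 to 109486822, 21 CG sites), where WB had 18.8%, LW 82.6% and ES 88.6%. On chromosome 7 (31348142 to 31348349, 20 CG sites) LW had 16.4%, WB 96.7% and ES 99.5%. A locus on chromosome 11 (13495332 to 13495612, 20 CG sites) showed ES near empty at 14.5%, with 80.2% in WB and 88.0% in LW. At the 6 largest loci with 3 levels, single listed CG sites were plotted. Sites were listed only where the compared breeds differed, by 28.3 points or more between ES and WB. The distance between the breeds at listed sites therefore follows from the listing. At the largest locus, on chromosome 5, 32 of the 38 CG sites were listed, and single levels of the unlisted sites are unknown. The listed sites of LW ran from 94.6% to 97.0% against WB, above the LW region mean of 88.3%. If that mean covers all 38 sites, the unlisted ones were lower in LW on average.

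**Figure D3:**
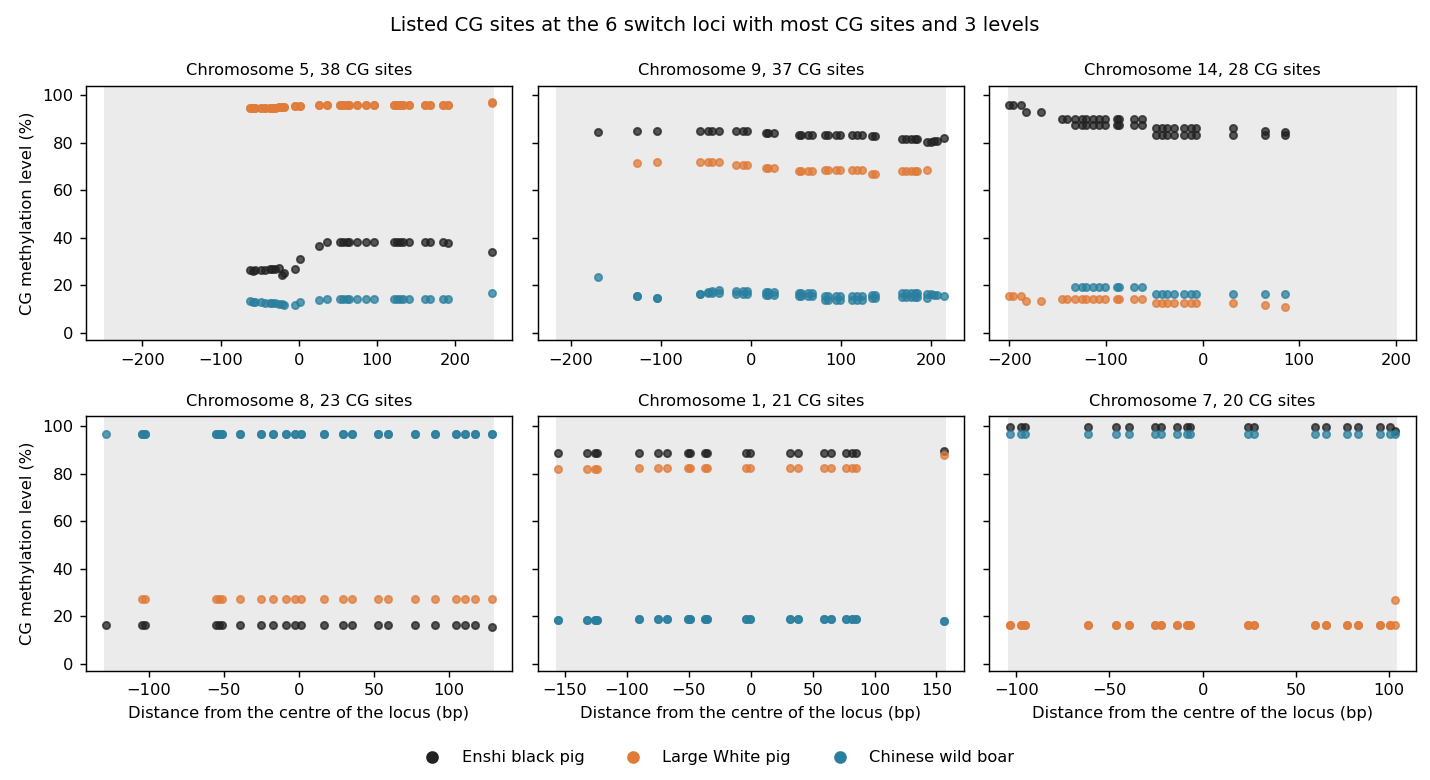
Levels of single listed CG sites (y axis, %) by distance from the centre of the locus (x axis, bp) at the 6 switch loci with most CG sites and levels for all 3 breeds. Colours are breeds (ES, Enshi black pig; LW, Large White pig; WB, Chinese wild boar), each point is 1 site in 1 comparison, and the grey band is the locus. Only sites listed as different between the compared breeds are drawn, so the distance between those breeds follows from the listing. On chromosome 5 the listed sites do not reach the left end of the grey band, and ES shifts between 2 plateaus below 40%.

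Further regions were named for their CG number, with 14 to 21 CG sites. ES was near empty on chromosome 4 (9193596 to 9193813, 20 CG sites) with 17.8% against 96.0% in WB, and on chromosome 10 (71670449 to 71670710, 20 CG sites) with 18.9% against 93.9%. Against LW it was near empty on chromosome 15 (153226329 to 153226521, 16 CG sites) with 17.2% and 96.8%, and on chromosome 4 (128665956 to 128666270, 16 CG sites) with 19.1% and 84.4%. LW was near empty against WB on chromosome 1 (96599510 to 96599726, 21 CG sites), with 17.9% and 96.3%. On chromosome 6 (49653320 to 49653611, 14 CG sites) it had 16.4% against 97.8%, and there ES stood still lower at 5.94%. WB was near empty on chromosome 8 (5254093 to 5254290, 19 CG sites) with 19.9%, where LW had 96.1% and ES 89.2%. ES had 19.8% at another locus of chromosome 8 (113526545 to 113526924, 17 CG sites), with 98.4% in WB and 96.0% in LW. The tenth locus of this kind, on chromosome 16 (34530268 to 34530482, 17 CG sites), had 19.4% in LW, 90.5% in ES and 56.2% in WB, the last from a region that overlapped it by 51 bp only.

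The widest differences were found in smaller regions. Between ES and WB the widest was 94.0 points on chromosome 12 (35902305 to 35902467, 9 CG sites), with 97.7% in ES and 3.71% in WB (SE 3.78 points). Between ES and LW it was 91.7 points on chromosome 2 (64433355 to 64433446, 7 CG sites), with 98.8% and 7.11% (SE 5.33 points). A second region of chromosome 2 (98339581 to 98339652, 4 CG sites) had the widest difference between LW and WB, 89.1 points, with 98.96% and 9.83% (SE 7.48 points). Each of these 3 regions held a single pair of levels at all of its listed sites.

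Just inside the thresholds lay a region on chromosome 5 (2054505 to 2054807) with 11.9% in ES and 80.03% in LW, and a region on chromosome 8 (23793554 to 23793774) with 19.96% and 88.5%. Just outside lay 1 on chromosome 9 (21158215 to 21158449) with 16.8% and 79.99%, and 1 on chromosome 3 (21475904 to 21476039) with 18.8% and 79.83%. Between ES and WB the members nearest to the limits had 17.9% and 80.03% on chromosome 8 (143882328 to 143882433), and 97.0% and 19.91% on chromosome 9 (31197867 to 31197944). The nearest regions left out had 90.8% and 20.19% on chromosome 1 (42556431 to 42556696), and 79.81% and 17.7% on chromosome 17 (55497327 to 55497399). Between LW and WB they were inside at 80.04% and 15.6% on chromosome 15 (121794898 to 121794989) and at 96.1% and 19.91% on chromosome 8 (5254093 to 5254290), and outside at 20.03% and 96.7% on chromosome 16 (78787241 to 78787322) and at 98.8% and 20.27% on chromosome 17 (68083569 to 68083688). On both sides of this border the distance to the limit was smaller than the SE. That SE belongs to the difference between breeds at single CG sites, so it does not measure the error of a breed's region mean.

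The level of the third breed was known from an overlapping listed region of another comparison at 180 of the 396 loci (45.5%), and at 81 of them that region met the selection rule too. Where it was known, the third breed was near full at 91 loci (50.6%, Wilson interval 43.3% to 57.8%), between 20% and 80% at 81 (45.0%, 37.9% to 52.3%) and near empty at 8 (4.44%, 2.27% to 8.52%). With the level taken from at least 2 listed sites in place of a region, 179 loci had all 3 levels, and the third breed was near full at 102, between at 62 and near empty at 15. By region means, 1 breed alone was near empty at 91 loci, namely ES at 39, LW at 29 and WB at 23. One breed alone was near full at 8 loci, with ES at 2, LW at 3 and WB at 3. The third level enters only where a list that shares a breed also held a region, and such a list leaves out levels near that breed's own.

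Among the loci with 1 breed near empty were several with many CG sites. ES had 4.66% on chromosome 1 (142820096 to 142820381, 15 CG sites), with 98.1% in WB and 84.6% in LW, and its SE of 2.57 points was the smallest of all members. On chromosome 10 (68970390 to 68970584, 14 CG sites) it had 12.4% against 92.0% in WB and 90.9% in LW. LW had 16.1% on chromosome 1 (118693784 to 118694335, 14 CG sites), with 82.3% in WB and 83.8% in ES. The lowest level of LW with both others known was 2.63%, on chromosome 10 (48030958 to 48031116, 5 CG sites), where WB had 85.3% and ES 85.9%. On chromosome 14 (136601806 to 136601932, 6 CG sites) LW had 12.4% while both other breeds had 99.6%. The loci of this paragraph were picked after their values were seen.

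The 8 loci with 1 breed near full lay on chromosomes 3, 5, 6, 8, 9, 10 and 14, with 2 of them on chromosome 9. LW was near full on chromosome 3 (67243623 to 67243693) with 99.1%, against 15.3% in WB and 16.0% in ES. It was also near full on chromosome 5 (101664425 to 101664644) with 86.7%, against 15.2% and 6.83%, and on chromosome 8 (23793554 to 23793925) with 87.1%, against 7.16% and 19.96%. WB was near full on chromosome 6, at the locus with 14 CG sites given above, and at both loci of chromosome 9. At 19262386 to 19262714 it had 81.7% against 9.73% in LW and 6.51% in ES, and at 133147662 to 133147797 it had 82.0% against 8.45% and 9.56%. ES was near full on chromosome 14, at the locus with 28 CG sites, and on chromosome 10 (73360213 to 73360268), with 86.8% against 11.8% in LW and 17.8% in WB.

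At the 81 loci where the third breed was intermediate, its level had a median of 64.6% and ran from 20.6% to 79.8%. It lay above 50% at 56 of them and at or below 50% at 25, and 16 loci fell between 40% and 60%. The third breed was WB at 39 of these loci, ES at 24 and LW at 18. Several of the lowest levels of all members belonged to this class. ES had 2.03% on chromosome 10 (63916243 to 63916418), with 81.2% in LW and 62.5% in WB. On chromosome 1 (244879238 to 244879309) it had 2.27%, against 88.4% in LW and 52.9% in WB, and on chromosome 2 (35477440 to 35477668) 3.5%, against 89.3% and 35.0%. These 3 regions had 4 CG sites each and SEs of 4.83 to 5.89 points, and they too were picked for their values.

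**Figure D4:**
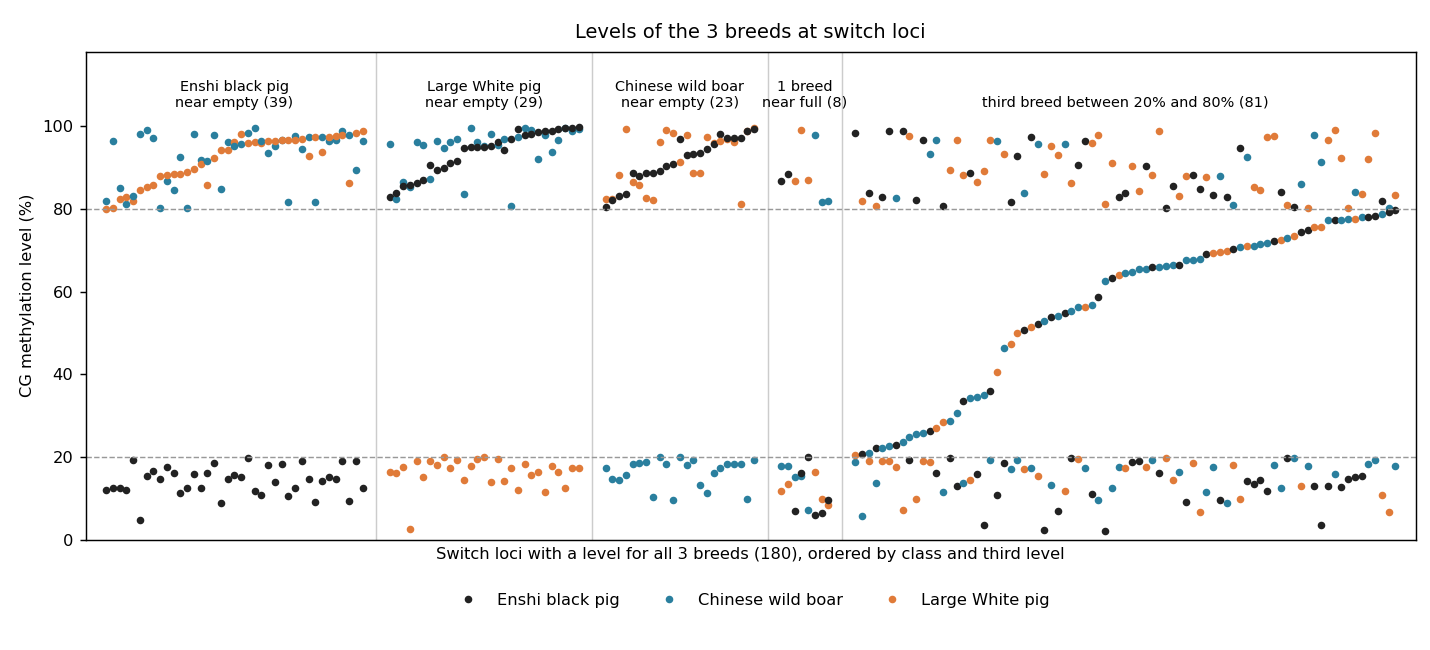
CG methylation level (y axis, %) of the 3 breeds at the 180 switch loci with a level for each, 1 column of 3 points per locus, ordered by class and by the level of the third breed (x axis). Dashed lines mark 20% and 80%. One breed is near empty at 39, 29 and 23 loci, 1 breed is near full at 8, and at 81 loci the third breed fills the range between the limits.

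Loci were sorted here by the near-empty breed of the region that described them. The third breed was near full at 39 of the 69 loci so assigned to ES with all 3 levels known (56.5%, Wilson interval 44.8% to 67.6%). It was near full at 29 of 57 with LW near empty (50.9%, 38.3% to 63.4%) and at 23 of 54 with WB near empty (42.6%, 30.3% to 55.8%). The 3 intervals overlap. At 8 loci 2 breeds were near empty, and these loci were assigned to LW at 4, WB at 4 and ES at 0. ES was near empty too where LW or WB alone was near full. Its 69 loci leave such loci out, so its share is too high.

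A switch in both comparisons of a breed was found at 81 loci, a switch in 1 comparison at 315, and 0 loci switched in all 3, which no single set of 3 levels could give. The breed common to both comparisons was ES at 35 loci, LW at 24 and WB at 22, and 63 of the 81 loci had identical bounds in both lists. The common breed was the near-empty one at 73 of the 81 loci (90.1%, Wilson interval 81.7% to 94.9%). Among 3070 other short CG-poor loci listed in exactly 2 comparisons with the common breed on the same side in both, it was the lower one at 2180 (71.0%, 69.4% to 72.6%). For ES the counts were 33 of 35 switch loci and 1069 of 1430 others, for LW 21 of 24 and 555 of 777, and for WB 19 of 22 and 556 of 863. The rule and the levels of the lists bear on this share, since both comparisons had to pass the limits of 20% and 80% and the lists held far more regions at or above 80% than at or below 20%, so it is a description. Both comparisons of a breed also share its methylome, and the counts are no independent repeats.

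At the other 216 loci (54.5%) no listed region gave the level of the third breed, although the levels of the compared breeds lay at least 61.1 points apart there, so that any level of the third breed differed from one of them by at least 30.5 points. These loci were smaller and less precise. Exactly 4 CG sites were present in 57.4% of them against 30.6% of the 180 loci with 3 levels, and the median SE was 10.1 against 8.21 points. All 3 levels were known at 71.2% of the 59 loci with 10 or more CG sites and at 40.9% of the other 337. Whether size or SE had a part in the missing regions was not tested. Single listed sites, at least 2 per locus, gave the third level at 26 of the 216 loci, of which 11 were near full, 11 between and 4 near empty. One of the latter was on chromosome 18 (36281576 to 36281823), where ES had a mean of 3.18% over 3 sites at a locus with levels of 13.8% and 83.9% in the other breeds.

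Within a switch region the listed CG sites mostly shared 1 estimated level. Site levels are estimates of the authors' model and not read counts. Identical levels at neighbouring sites therefore do not show equal methylation measured site by site. Of 3160 CG sites in the 477 regions, 3051 (96.6%) were also listed singly, against 18.6% in the other short CG-poor regions, and in 412 regions every CG site was listed. A wide difference also enters the listing of single sites, so this share follows in part from the selection. All listed sites of a region had an identical pair of levels in 356 of the 470 regions with 2 or more such sites (75.7%), against 50.5% of the other short CG-poor regions. The share with 1 pair fell with size, from 88.4% at 4 CG sites to 76.2% at 5 to 9 and 42.3% at 10 or more. Where a region held several pairs, the median range of site levels within a comparison was 3.69 to 6.87 points in the lower breed and 3.25 to 5.57 points in the higher.

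The widest ranges within a region were larger than its SE. On chromosome 8 (124822138 to 124822426, 4 CG sites in 289 bp) the sites of ES ranged over 38.2 points while those of WB ranged over 3.89 points, around region means of 18.6% and 93.3%. A second region of chromosome 8 (20963721 to 20964219, 5 CG sites in 499 bp) had a range of 37.1 points in ES and 2.55 points in LW. On chromosome 16 (75727692 to 75728157, 6 CG sites in 466 bp) both breeds varied, by 25.7 points in WB and 34.3 points in LW. All 3 were among the sparsest members, with 1.0 to 1.38 CG sites per 100 bp.

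The same near-empty levels recurred at loci on different chromosomes. Taken within 1 comparison and rounded to 0.01 points, the near-empty level was shared with at least 1 other region in 195 of the 477 regions (40.9%), and the near-full level in 101 (21.2%). These shares were not computed for the other short CG-poor regions, so whether recurrence is particular to the switch regions is unknown. ES had a level of 12.60% in 12 regions on 9 chromosomes in its comparison with LW and 16.01% in 10 regions on 7. With WB it had 12.49% in 10 regions and 15.87% in 9. LW had 17.29% in 9 regions of its comparison with ES and 17.24% in 11 of that with WB. In WB the most frequent level was 19.17% in 12 regions against ES and 19.23% in 14 regions against LW, all of them with 4 CG sites. The near-full partners of these regions were spread, from 80.8% to 99.4% over the 12 regions and from 85.6% to 99.6% over the 14. Less frequent recurring levels of WB lay lower, at 9.80% in 3 regions and 15.25% in 3 against ES, and levels near the limit recurred in the other breeds too, as 18.95% in 7 regions of ES against WB. Read counts behind them are unknown, and their part in these values was not tested.

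Switch loci were spread over all 18 autosomes at 16.2 per 100 Mb, with a median of 4056 kb between neighbours. Chromosome 1 had the most, 43, and chromosomes 12 and 18 the fewest, 11 each. The number per chromosome followed its last listed position, which stood in for its length, with a Spearman rho of 0.806 over the 18 autosomes, given here as a description. Per 100 Mb, chromosome 10 (27.8), chromosome 11 (26.2) and chromosome 8 (22.3) held the most, and chromosome 4 (11.9) the fewest. On these chromosomes the short CG-poor regions numbered 1016, 826, 630 and 751 per 100 Mb in the same order. Switch regions made up 3.36%, 4.01%, 4.18% and 1.67% of them. Chromosome 12 had the densest short CG-poor regions, 1176 per 100 Mb, but the smallest share of switch regions among them, 1.61%. The share was largest on chromosome 8, 4.18%, and 2.90% over all autosomes. The number of CG sites covered per chromosome was not used here.

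**Figure D5:**
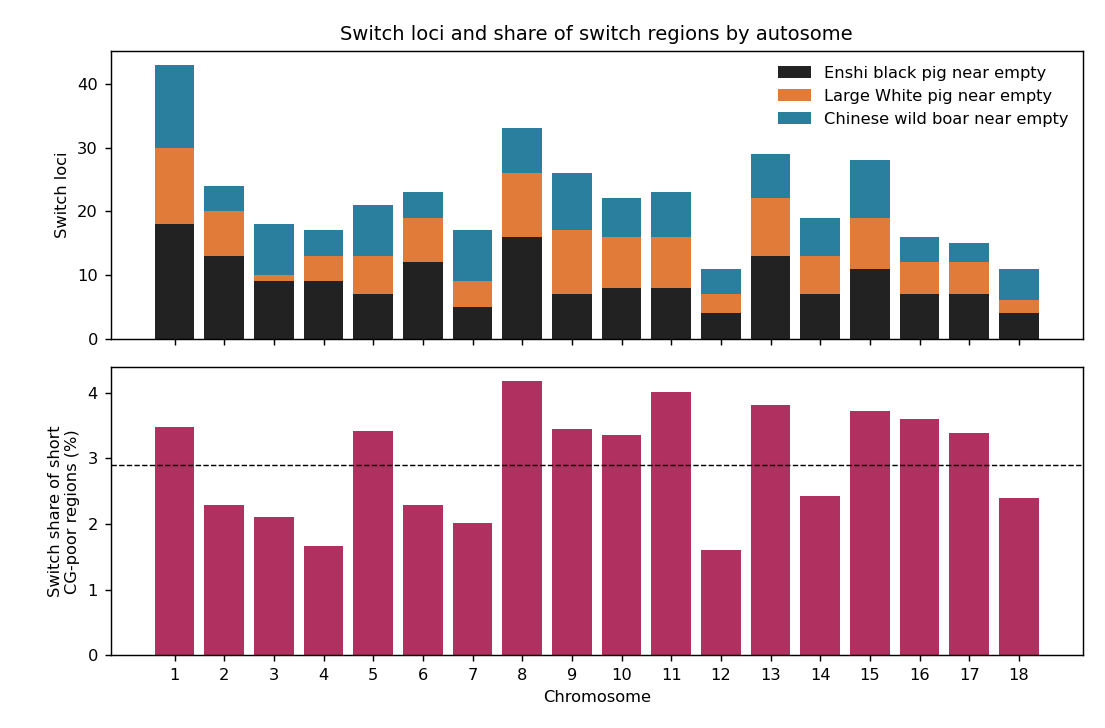
Switch loci per autosome (upper y axis), coloured by the breed that was near empty in the region with most CG sites, and share of short CG-poor regions that were switch regions (lower y axis, %), with chromosomes on the x axis. At 8 loci 2 breeds were near empty and only 1 is coloured, LW at 4 and WB at 4. The dashed line is the share over all autosomes, 2.90%. Chromosome 1 has the most loci, chromosome 8 the largest share (4.18%) and chromosome 12 the smallest (1.61%).

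Most regions of both sets had no close neighbour. The next listed region of the same comparison lay within 2 kb of 10 regions (2.10%) and within 10 kb of 59 (12.4%), against 9.35% and 18.7% of the other short CG-poor regions, and its median distance was 115 kb against 76.9 kb. Listed single sites outside the region but within 2 kb were present beside 12 of the 477 (2.52%), against 4.14% of the others. The contrast differed in size by comparison. A neighbour within 10 kb was present for 12.2% against 18.7% of the others between ES and LW, 17.5% against 19.1% between ES and WB, and 6.62% against 18.1% between LW and WB. Listed sites within 2 kb were present for 2.76% against 4.70%, 3.75% against 3.74%, and 0.735% against 3.92% in the same order. Whether unlisted CG sites around the regions were covered is unknown.

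Within 50 kb of each other lay 7 pairs of loci, and no run was longer than 2 loci. In 1 pair the same breed was near empty on both sides with both other breeds near full. LW had 14.2% on chromosome 14 at 95300102 to 95300194, with 94.3% in ES and 97.0% in WB, and 18.2% at 95324152 to 95324407, with 97.9% and 99.6%. In the other pairs the compared regions had different breeds near empty. On chromosome 9, for example, LW had 9.73% at 19262386 to 19262714, and ES, which also had 6.51% there, had 9.07% at 19290907 to 19291110, where LW had 88.0% and WB 67.5%. Neighbouring loci thus did not always have the same breed order.

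Gene models of the build of the files were used for chromosome 1 only, from long-read transcripts of 2023 loci, a part of the loci of this chromosome. Of the 43 switch loci on this chromosome, 2 overlapped a model or its 2 kb upstream (4.65%, Wilson interval 1.28% to 15.5%), against 77 of 1232 other short CG-poor loci of chromosome 1 (6.25%, 5.03% to 7.74%). One lay in the first of 9 exons of TTC23 (ENSSSCG00000004813, chromosome 1, 154080867 to 154169647, minus strand), which encodes a tetratricopeptide repeat protein of the primary cilium. The exon runs from 154169446 to 154169647, and the switch region from 154169469 to 154169538, 109 bp inside the gene from its start. Its 4 CG sites all had 12.6% in ES and 97.5% in LW, with an SE of 9.32 points, and the level of WB was not listed. The level of 12.6% is the recurring value given above. The other locus lay 1887 bp upstream of an unnamed transcript locus on the minus strand (223957422 to 223968556), at 223970443 to 223970520. There, ES had 97.1% and WB 19.7% over 4 CG sites, with a median SE of 9.03 points. All other switch loci of chromosome 1 fell outside the models used, and their overlap with genes that these models leave out is unknown. Genes of the other chromosomes were not analysed here.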

How the data were processed

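Liver methylomes of 3 breeds, 1 each, were analysed from the authors' lists of CG sites and regions that differed between 2 breeds, for all 3 pairs of breeds. Per the submitters' processing notes, reads were aligned with Bismark 0.15.0 to Sscrofa10.2. The deposited levels are fractions of methylated reads as estimated by the authors' model, here multiplied to percent, beside the SE of the difference at each site. Software and cut-offs behind the calls: not given in the sources used here. Deposited differences, test scores, p-values and false discovery rates were not used. Read depth is unknown.

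Level columns carry numbers, so breeds were assigned by the codes in each table's name (ES, LW, WB), read left to right. In the labels the table of ES with WB belongs to the LW sample and that of LW with WB to the WB sample. This reading was checked at 1119 CG sites of 2 lists within switch loci, where the level of the shared breed moved by a median of 0.0526 points, against 75.8 points with the columns of the second list exchanged.

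Regions with at least 1 bp of overlap were merged into loci, each described by its region with most CG sites. Ties were settled by length and then by a fixed order of the comparisons. The third level came from the listed region of another comparison that overlapped the describing region most. At 160 of 180 loci the shared breed moved by at most 5 points between both lists. The largest shift was 44.8 points, and loci with larger shifts were kept in the classes. Intervals of shares are 95% Wilson intervals and cover counting only. No test was made, since each breed has 1 methylome. Named were, per comparison and direction, the 3 regions with most CG sites, the 10 loci with most CG sites and 3 levels, the regions nearest to the limits, the widest differences, the loci within 50 kb of each other, and overlapping genes, unless said otherwise. The members, lists and rules were chosen with earlier results of these data known. Steps were tested on simulated data. Python 3.11.15, numpy 2.4.6, pandas 2.3.3, scipy 1.17.1 and matplotlib 3.10.9 were used. Gene models came from the long-read transcripts used here, which cover a part of the loci of chromosome 1, and 53 of 2023 loci had a symbol. Sequences, CG sites outside the lists and the marker and pathway lists were not analysed here.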

Additional observations from a re-analysis of the deposited data

Results flagged for a closer look

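The length, density and level conditions were also met outside chromosomes 1 to 18, in data that the comparisons above do not use. On X they were met by 17 of 586 short CG-poor regions between ES and LW (2.90%), 14 of 552 between ES and WB (2.54%) and 13 of 579 between LW and WB (2.25%). ES was the near-empty breed in 10 of the 17 and in 4 of the 14, and LW in 2 of the 13. On unplaced scaffolds and other sequences they were met by 41 of 759 regions (5.40%), 31 of 730 (4.25%) and 31 of 582 (5.33%) in the same order, shares above the 2.90% over all autosomes. The regions were selected by their levels, so the counts are a description. No group holds 4 or more samples, so no sample could be compared with others of its group.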

How the results depend on the processing

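Of 92 recomputed values of 24 results, 53 stayed close to the value given above, 39 moved and 0 reversed. Counts were called close within a set factor of the value above, and shares within its interval. Median levels of single CG sites were called close when they moved by less than the median SE of these sites. Only the near-empty shares of ES with LW and ES with WB could be called reversed, since their intervals exclude 50%. The share of LW with WB, 47.8%, rose above 50% at limits of 25% and 75% (53.3%) and at a length of at least 100 bp (52.3%). Values are given for ES with LW, ES with WB and LW with WB, in this order, and then for distinct loci. Limits of 15% and 85% left 63, 42 and 30 regions and 121 loci, limits of 25% and 75% gave 371, 317 and 270 regions and 788 loci, and limits of 10% and 90% left 7, 13 and 4 regions and 22 loci. At least 5 CG sites left 113, 87 and 72 regions and 217 loci, and at least 10 left 30, 28 and 20 regions and 59 loci. A length of at least 100 bp left 92 and 88 regions for ES with WB and LW with WB and 251 loci, and a density below 0.05 per bp left 117 and 82 regions in the comparisons of ES and 250 loci. These settings admit fewer or more regions by construction. With means of the listed sites in place of the deposited region means, 214, 192 and 162 regions and 476 loci met the limits. These counts were called close to the 181, 160 and 136 regions and 396 loci given above. The share with the first breed near empty moved to 68.3% and 76.2% in the comparisons of ES at 15% and 85%. At 10% and 90% it was 71.4% with LW, and 25% for LW against WB, of 7 and 4 regions. With at least 10 CG sites it was 50% and 71.4% in the comparisons of ES, of 30 and 28 regions. Levels of the third breed from at least 2 shared listed sites gave 15 loci with the third breed near empty in place of 8, and the cause was not tested. With 2 kb in place of 10 kb the share with a neighbouring region was 3.31%, 2.50% and 0%, and with 500 bp in place of 2 kb the share with a listed site outside was 0%, 0.625% and 0%, as the narrower windows entail. No paired analysis was possible because there is only 1 methylome of each breed. With 1 methylome per breed, differences between animals of a breed and between breeds cannot be told apart, and the unknown depth limits every level.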
